A study of Mus musculus with 11 samples.

Results

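The genes described here are 38 genes of glucose breakdown and of the response to low oxygen, out of 20284 genes that the array names. They were taken from a list of symbols, and each is represented by its brightest probe, that is, the probe with the highest mean signal among those whose transcript accession belongs to the gene. All 38 had a probe that passed the filter on dim probes, as did 18561 genes in all, so no gene of the list was lost. Of the 38, 14 had more than 1 probe on the array. The symbol Ero1l stands for the gene now named Ero1a, and Eno1b, a near-identical copy of Eno1, was kept apart from it.

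Cells take up glucose through carriers, break it down to pyruvate in glycolysis and either reduce the pyruvate to lactate, which leaves through monocarboxylate carriers, or pass it to the mitochondria through pyruvate dehydrogenase. The transcription factor HIF is degraded when oxygen is plentiful, after hydroxylases such as those encoded by Egln1 and Egln3 have marked it. When oxygen is scarce it accumulates and raises transcription of many genes of glycolysis, of vessel growth and of acid balance, and growth factor signalling can do so as well. Pluripotent stem cells in culture are known for a high use of glycolysis, and the sensory epithelium of the cochlea lies in a tissue that is supplied by vessels outside the epithelium itself.

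The study compared otospheres, which are floating spheres grown from dissociated cochlear cells and hold sphere-forming progenitor cells, with the freshly dissected cochlear sensory epithelium (CSE) and with mouse embryonic stem cells (ESCs). The CSE and the otospheres came from ICR mice at postnatal day 1, with 20 cochleae pooled in a dissection, and the epithelium was separated from the spiral ligament and the stria vascularis. Otospheres had been cultured for 4 or 5 days in suspension with bFGF and IGF1, then dissociated, grown for 4 or 5 days more as secondary spheres at passage 1 and strained so that solid spheres were kept. The 2 ESC samples were of different lines, G4-2 and D3, both at passage 13 and grown without feeder cells in serum and LIF, so line and replicate cannot be told apart there. From 50 or 100 ng of RNA a sample, 2 ESC, 6 otosphere and 3 CSE arrays of 1 colour were made. OS1 and OS2 differed by less than the noise between spots of the same probe, with a ratio of 0.896, as did OS4 and OS5, with 0.406, while the other pairs of arrays in a group had ratios from 1.54 to 3.35. Each of these pairs was counted as 1 sample, which left 4 otosphere samples (OS1-2, OS3, OS4-5 and OS6), 3 CSE samples and 2 ESC samples. The labels do not say whether the otosphere replicates came from separate cultures, so that p-values measure the spread between these samples, which may be technical in part.

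Values are log2 signals after background correction and quantile normalization, in the order OS1-2, OS3, OS4-5 and OS6 for otospheres, and a log2 difference of 1 is a 2-fold change. On each array 55.1% to 71.6% of the spots were well above background, none was saturated, and the number of arrays limits the precision. ESC markers checked the labels: 7 of 8 were lower in otospheres than in ESCs. By its brightest probe Nanog was higher in otospheres by 1.44 and did not pass (adjusted p = 0.105). The study lists Nanog among the genes high only in ESCs, so this probe went the other way. Compared with the CSE, otospheres had 10 of 15 cochlear epithelium markers lower and none higher. RNA of other cell types also differed between otospheres and the CSE. Of the genes tested, 6 of 11 erythroid, 7 of 13 endothelial and pericyte, 8 of 11 macrophage and 9 of 11 neuronal markers were lower in otospheres, and 1 endothelial marker was higher. The mean level of the erythroid list, relative to the gene means over the 9 samples, lay between -1.46 and -1.13 in otospheres and between 1.92 and 2.34 in the CSE. For the macrophage list these ranges were -1.08 to -0.37 and 1.58 to 1.81, and C1qa, C1qc and Mrc1 were not well above background on any otosphere array. The part of these cells in the differences below was not tested, and in bulk RNA fewer cells of a type and less RNA per cell cannot be told apart.

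Of the 38 genes, 28 differed among the 3 groups (F-test of limma, adjusted p under 0.05), against 48.7% of all genes tested. Between otospheres and the CSE 15 of the 38 passed, against 17.5% of all genes, and 10 of them were higher in otospheres (7.17% of all genes) and 5 lower (10.3%). The median log2 difference of the 38 genes was 0.32, and that of all genes was -0.01. All 4 otosphere samples lay above all CSE samples for 13 of the 38 genes (14.1% of all genes) and below them for 5 (18.9%). Without the third CSE sample 6 of the 10 higher genes passed, and these were Hk2, Aldoa, Pdk4, Vegfa, Adm and Ero1l. In all 15 genes the difference had the same direction on each of the slides that carried the arrays, the first with OS1-3, 2 CSE samples and 1 ESC sample and the second with OS4-6, 1 CSE sample and 1 ESC sample.

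**Figure D1:**
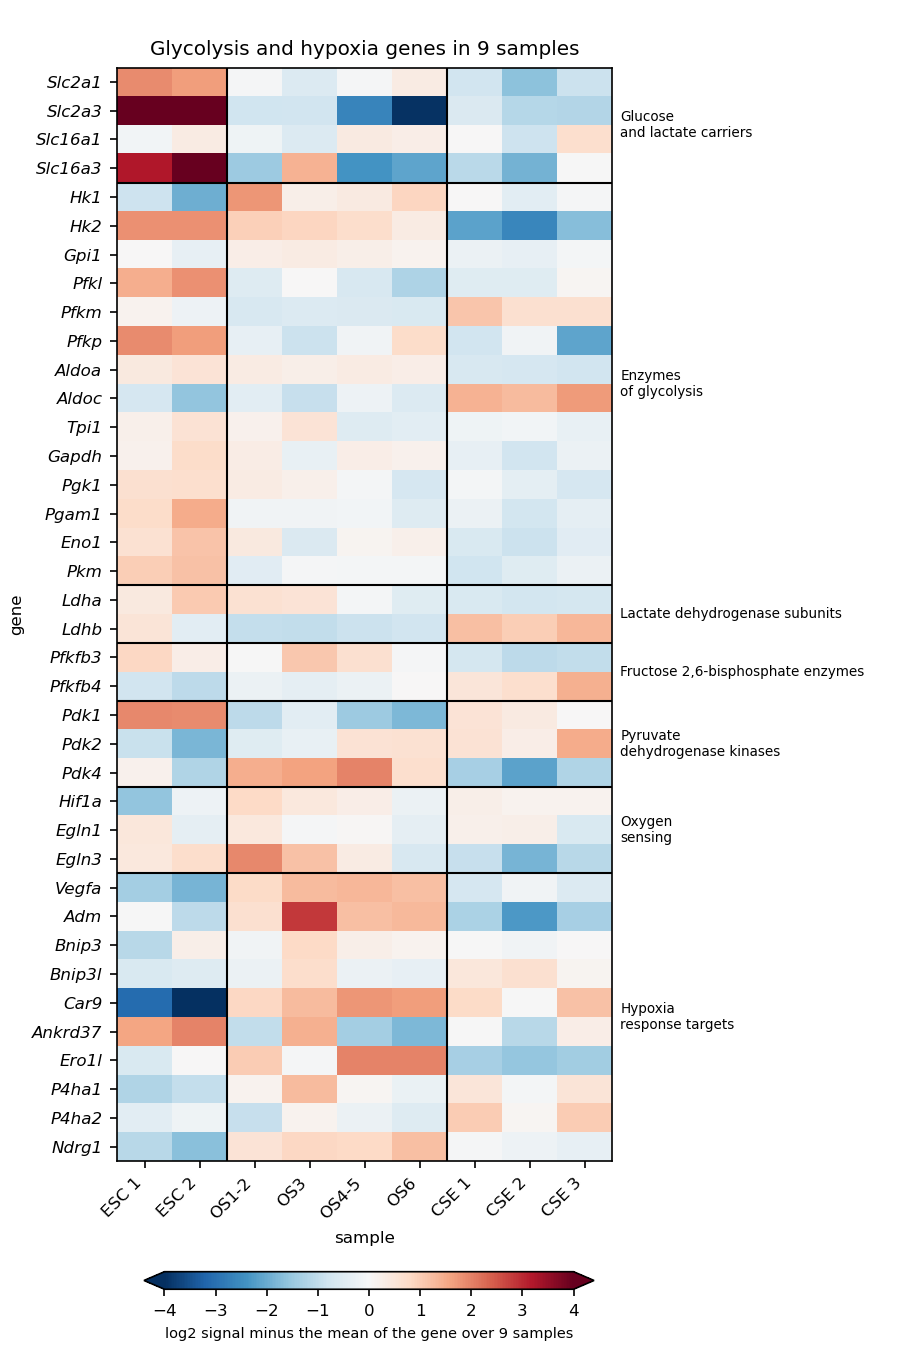
Colour shows the normalized log2 signal of each of the 38 genes (rows, grouped by role) in each of the 9 samples (columns), minus the mean of the gene over the samples; colours end at 4 and -4. Slc2a3 and Slc16a3 are far higher in both ESC samples, Car9 is lower in both, and Adm, Ero1l and Pdk4 are higher in the otospheres than in the CSE.

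Compared with ESCs, 19 of the 38 genes passed in otospheres, against 38.9% of all genes, 9 of them higher (18.4% of all genes) and 10 lower (20.4%), with a median difference of -0.14. When the processed signals of the scanner software were used and aligned at their 75th percentile, which changes background correction and scaling together, the median of all genes moved from -0.01 to -0.26 in this comparison, and the split became 9 higher and 18 lower. The CSE differed from ESCs in 24 of the 38 genes (40.9% of all genes), 9 higher (20.9%) and 15 lower (20%), and the median of the 38 was -0.97 while that of all genes was -0.02. With these processed signals the split was 6 higher and 17 lower. Without the second ESC sample, 5 genes were higher in otospheres than in ESCs, and 5 were higher in the CSE than in ESCs. Otospheres were a side of both of their comparisons, so these counts are not independent of each other.

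**Figure D2:**
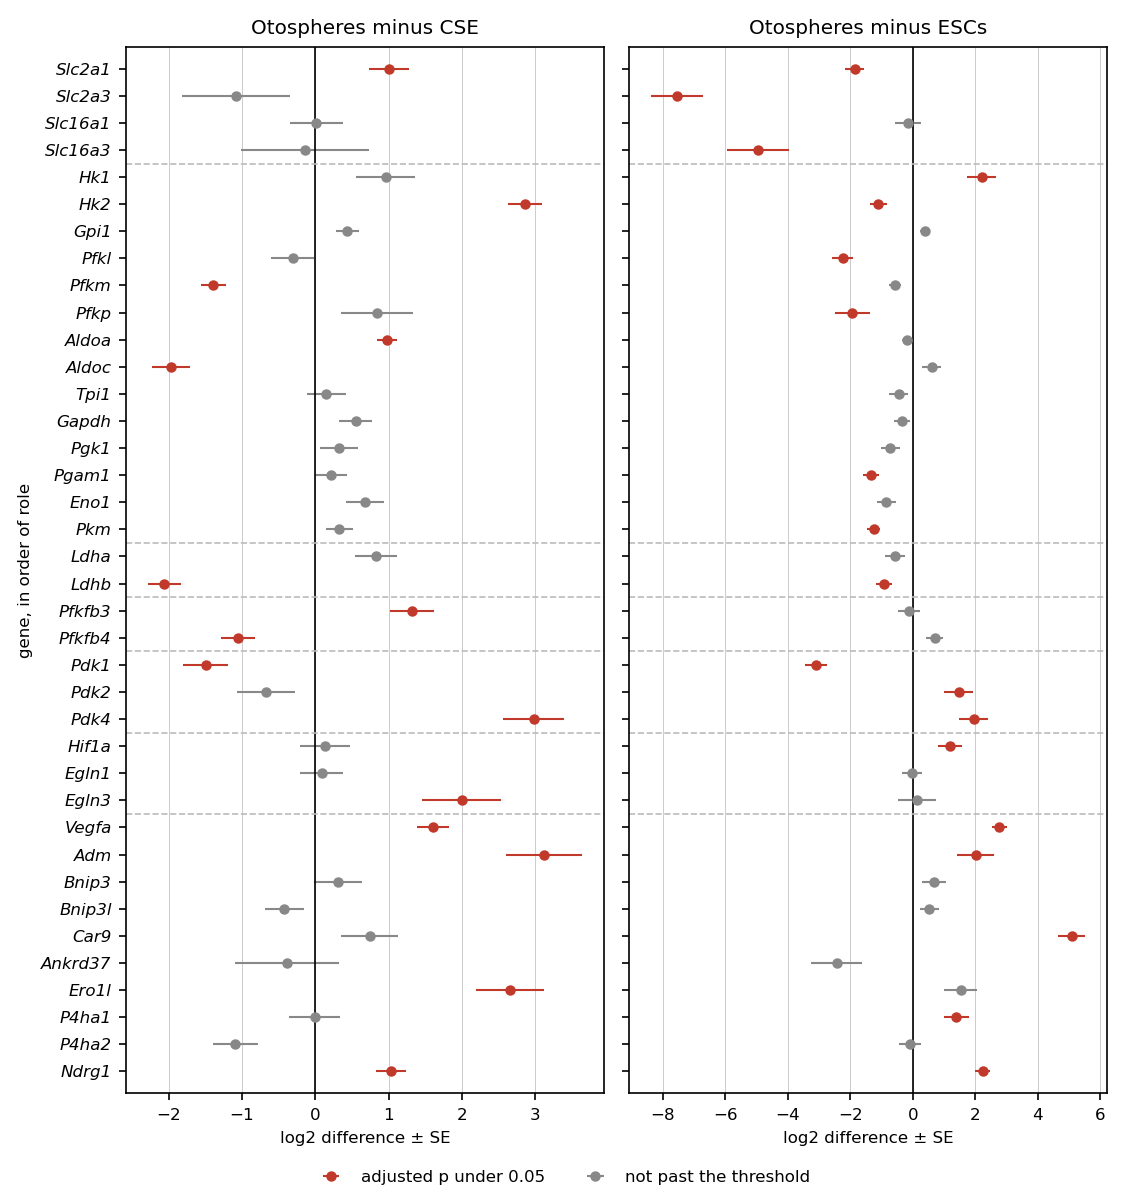
Points give the log2 difference of otospheres from the CSE (left) and from ESCs (right) for the 38 genes, with bars of 1 SE from the limma model, and the dashed lines separate the roles. Hk2, Adm, Pdk4 and Ero1l stand farthest to the right against the CSE, and Slc2a3 and Slc16a3 farthest to the left against ESCs.

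The starts of a few genes are shown because HIF binds the letters ACGTG and GCGTG, and because the genes with the largest differences moved in opposite directions. The windows are those of RefSeq on GRCm38.p6, from 250 bases before to 50 bases after a gene's start, 5′ to 3′ on the gene's strand, and 35 of the 38 genes had one (Slc2a3, Bnip3l and Ndrg1 had none). Capitals mark ACGTG or GCGTG on either strand, and the letters CACGTG hold ACGTG on both strands. Of the genes higher in otospheres than in the CSE by the largest differences, Hk2, Adm, Pdk4 and Ero1l, each window holds such letters.
Hk2 (chr6:82774405-82774704, minus strand): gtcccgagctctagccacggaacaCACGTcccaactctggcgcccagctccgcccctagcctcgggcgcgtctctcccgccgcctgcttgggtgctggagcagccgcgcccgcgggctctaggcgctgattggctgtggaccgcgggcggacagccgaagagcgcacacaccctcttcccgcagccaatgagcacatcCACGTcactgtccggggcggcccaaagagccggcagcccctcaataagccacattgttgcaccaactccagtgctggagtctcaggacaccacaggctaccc
Adm (chr7:110627407-110627706, plus strand): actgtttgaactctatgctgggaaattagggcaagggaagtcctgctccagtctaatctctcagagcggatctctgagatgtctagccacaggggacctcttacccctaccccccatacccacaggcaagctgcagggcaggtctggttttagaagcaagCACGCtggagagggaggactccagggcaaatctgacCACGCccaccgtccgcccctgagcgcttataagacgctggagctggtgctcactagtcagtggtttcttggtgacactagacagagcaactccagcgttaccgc
Pdk4 (chr6:5496229-5496528, minus strand): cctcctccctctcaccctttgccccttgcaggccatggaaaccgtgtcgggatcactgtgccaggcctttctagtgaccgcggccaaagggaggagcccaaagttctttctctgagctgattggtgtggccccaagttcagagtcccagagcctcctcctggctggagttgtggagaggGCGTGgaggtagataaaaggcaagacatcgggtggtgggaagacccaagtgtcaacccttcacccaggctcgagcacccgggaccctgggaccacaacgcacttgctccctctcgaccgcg
Ero1l (chr14:45318523-45318822, minus strand): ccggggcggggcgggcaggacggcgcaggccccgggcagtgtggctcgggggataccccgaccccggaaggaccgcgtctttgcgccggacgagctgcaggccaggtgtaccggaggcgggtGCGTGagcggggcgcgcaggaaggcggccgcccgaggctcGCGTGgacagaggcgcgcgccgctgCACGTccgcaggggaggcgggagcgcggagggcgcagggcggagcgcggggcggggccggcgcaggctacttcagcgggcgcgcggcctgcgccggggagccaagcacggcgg
The genes that were lower by the largest differences, Ldhb and Aldoc, hold them too, and so does Car9, the gene with the largest rise from ESCs to otospheres; of Aldoc's windows, the one with more of these letters is shown.
Ldhb (chr6:142507908-142508207, minus strand): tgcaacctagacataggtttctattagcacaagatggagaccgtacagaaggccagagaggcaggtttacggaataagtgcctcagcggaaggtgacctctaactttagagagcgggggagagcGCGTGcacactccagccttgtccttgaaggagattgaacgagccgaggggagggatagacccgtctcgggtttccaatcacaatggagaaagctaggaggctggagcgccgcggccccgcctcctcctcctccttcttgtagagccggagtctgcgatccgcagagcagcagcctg
Aldoc (chr11:78322823-78323122, plus strand): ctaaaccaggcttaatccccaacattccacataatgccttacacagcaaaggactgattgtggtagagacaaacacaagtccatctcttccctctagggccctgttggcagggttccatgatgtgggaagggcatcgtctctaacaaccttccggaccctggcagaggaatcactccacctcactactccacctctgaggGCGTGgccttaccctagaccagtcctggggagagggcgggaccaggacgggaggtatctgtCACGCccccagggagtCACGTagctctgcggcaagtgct
Car9 (chr4:43506776-43507075, plus strand): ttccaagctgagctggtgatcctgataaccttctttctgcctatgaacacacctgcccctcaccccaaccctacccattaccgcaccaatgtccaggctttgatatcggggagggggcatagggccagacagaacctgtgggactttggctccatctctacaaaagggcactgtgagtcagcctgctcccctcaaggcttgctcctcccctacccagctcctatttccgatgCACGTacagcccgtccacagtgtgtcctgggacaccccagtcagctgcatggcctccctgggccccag
At least 1 of the letters stood in a window of 33 of the 35 genes (94.3%), of 57.9% of the 14666 genes on the array with a kept probe and a window, and of 43.8% of all 32851 windows. They were in 9 of 9 genes higher in otospheres than in the CSE, in 5 of 5 lower genes and in 19 of the 21 that did not pass, all but Gpi1 and Tpi1. A match is a description of the window only. CACGTG stood in a window of 7 of the 35 genes and of 1467 of the 14666 genes on the array with a kept probe and a window.

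Among the carriers, Slc2a1 encodes the widely expressed glucose carrier. Its signal was 14.81 and 14.60 in the ESCs, 12.86, 12.39, 12.89 and 13.26 in the otospheres and 12.16, 11.29 and 12.08 in the CSE, so that the 3 groups did not overlap. Otospheres exceeded the CSE by 1.01 ± 0.27 (SE; adjusted p = 0.0467) and were below ESCs by a log2 difference of -1.85 ± 0.31 (adjusted p = 0.00201). The difference from the CSE lost its call in 14 of 20 alternatives, where adjusted p ran from 0.00921 to 0.134. It did so without either ESC sample (0.0571), without OS1-2 (0.0959), OS4-5 (0.114) or OS6 (0.103), and without the first (0.0721), second (0.13) or the third (0.0856) CSE sample.

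Slc2a3, the high-affinity glucose carrier known from neurons and embryonic cells, was at 14.94 and 13.93 in the ESCs, 8.15, 8.17, 6.29 and 4.97 in the otospheres and 8.37, 7.79 and 7.76 in the CSE. Otospheres were thus far below ESCs (-7.54 ± 0.84, adjusted p = 0.000255) and so was the CSE (-6.46 ± 0.88, adjusted p = 0.000727). The otosphere values overlapped those of the CSE (-1.08 ± 0.74, adjusted p = 0.493), the probe was well above background on 5 of 6 otosphere arrays, and the difference from the CSE was 0.08 on the first slide and -2.13 on the second.

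Slc16a3, the carrier that exports lactate from strongly glycolytic cells, stood at 13.61 and 14.79 in the ESCs, 8.94, 11.78, 8.01 and 8.31 in the otospheres and 9.32, 8.51 and 10.38 in the CSE. It was lower in otospheres than in ESCs (-4.94 ± 0.99, adjusted p = 0.00559) and lower in the CSE than in ESCs (-4.80 ± 1.05, adjusted p = 0.00823), a call that ended without the second ESC sample (-4.21, adjusted p = 0.0595). Otospheres and CSE overlapped (-0.14 ± 0.88, adjusted p = 0.97), with a difference of 1.45 on the first slide and -2.22 on the second. A further probe of Slc16a3 gave -4.89 against ESCs and -0.19 against the CSE. The more general lactate carrier Slc16a1 differed by 0.01 from the CSE and by -0.15 from ESCs, and neither passed.

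The hexokinases phosphorylate incoming glucose. Hk2, the isozyme of muscle and of proliferating cells, was at 12.17 and 12.18 in the ESCs, 11.30, 11.22, 11.06 and 10.70 in the otospheres and 8.22, 7.76 and 8.65 in the CSE. The groups were wholly apart, with otospheres between the others: 2.86 ± 0.24 above the CSE (adjusted p = 0.000202) and below ESCs, with a difference of -1.11 ± 0.27 (adjusted p = 0.0137). The CSE was below ESCs, with a difference of -3.97 ± 0.28 (adjusted p = 2.56e-05). The difference of otospheres from the CSE was 3.27 on the first slide and 2.23 on the second, and it passed in 20 of 20 alternatives; that from ESCs did not pass without the first (adjusted p = 0.0618) or the second ESC sample (0.0622).

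Hk1, the hexokinase that most tissues express, gave 12.01 and 10.90 in the ESCs, 14.62, 13.08, 13.21 and 13.70 in the otospheres and 12.85, 12.44 and 12.79 in the CSE. All otosphere samples were above all others, but the difference from the CSE, 0.96 ± 0.40, did not pass (adjusted p = 0.195). That from ESCs did (2.20 ± 0.45, adjusted p = 0.00631), except without the second ESC sample (1.65, adjusted p = 0.0614). A second, dimmer probe of Hk1 gave 0.70 against ESCs (adjusted p = 0.0361) and 0.67 against the CSE (adjusted p = 0.0503). So Hk1 was higher and Hk2 lower in otospheres than in ESCs.

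Phosphofructokinase, the main point of control of the pathway, is assembled from muscle, liver and platelet subunits. The muscle subunit Pfkm was at 11.78 and 11.45 in the ESCs, 11.01, 11.09, 11.08 and 11.04 in the otospheres and 12.77, 12.30 and 12.28 in the CSE. Otospheres, which varied by an SD of 0.03 (n = 4), were lower than the CSE, with a difference of -1.39 ± 0.17 (adjusted p = 0.00135). Pfkm's probe was spotted 10 times, and in the log2 table that the authors deposited its values run from 1.11 to 1.30, where the scanner files give 10.97 to 12.77; in that table the difference was -0.14 (adjusted p = 0.699). Over the 360 probes with 10 spots that the table shares with the kept probes, its log2 values were a median of 0.0992 times those of the scanner files, against 0.973 for probes with 1 spot, so that Pfkm is on another scale there and its difference cannot be set beside the one above.

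The liver subunit Pfkl had 11.91 and 12.29 in the ESCs, 9.94, 10.47, 9.82 and 9.22 in the otospheres and 9.98, 9.98 and 10.54 in the CSE. The platelet subunit Pfkp had 11.52 and 11.32, then 9.31, 8.76, 9.50 and 10.35, then 8.88, 9.50 and 7.53 in the same order. Both were lower in otospheres than in ESCs, with a difference of -2.24 ± 0.33 (adjusted p = 0.00115) and -1.94 ± 0.55 (adjusted p = 0.0291), and both overlapped between otospheres and CSE. A second, dimmer probe of Pfkp gave -0.82 against ESCs and did not pass (adjusted p = 0.134). Pfkp's call ended without either ESC sample (adjusted p = 0.13 and 0.0949) and without OS1-2 (0.0599), OS3 (0.0584) or OS4-5 (0.0596). Its difference from the CSE was -0.15 on the first slide and 2.39 on the second.

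Aldolase splits the sugar bisphosphate into trioses, and its isozymes moved apart. Aldoa, the form of muscle and of most cells, ranged from 16.76 to 16.87 in otospheres, from 15.78 to 15.89 in the CSE and from 16.93 to 17.07 in ESCs. Otospheres were above the CSE by 0.98 ± 0.13 (adjusted p = 0.00197) and did not pass against ESCs (-0.18 ± 0.15, adjusted p = 0.425). Aldoc, the form of brain and of some sensory cells, was at 13.37 and 12.46 in the ESCs, 13.62, 13.12, 13.84 and 13.48 in the otospheres and 15.43, 15.29 and 15.73 in the CSE. The CSE was above all other samples, and otospheres differed from it by -1.97 ± 0.26 (adjusted p = 0.00192), with -1.99 and -2.07 on the slides.

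None of Gpi1, Tpi1, Gapdh, Pgk1, Pgam1, Eno1 and Pkm, which carry out the other steps to pyruvate, passed between otospheres and CSE, although all 7 differences were positive, from 0.15 to 0.68. Pgam1, the phosphoglycerate mutase of most tissues, was at 15.79 and 16.54 in the ESCs, 14.92, 14.92, 14.95 and 14.55 in the otospheres and 14.82, 14.33 and 14.70 in the CSE. Pkm, the pyruvate kinase that makes the last step, was at 15.62 and 15.82, then 14.18, 14.60, 14.56 and 14.55, then 13.85, 14.17 and 14.41. For both, all otosphere and CSE samples were below the ESCs: Pgam1 with a difference of -1.33 ± 0.25 (adjusted p = 0.00421) and Pkm with a difference of -1.24 ± 0.21 (adjusted p = 0.00233) in otospheres. In the CSE, Gapdh, Pgk1, Pgam1, Eno1 and Pkm were lower than in ESCs, with differences from -1.57 to -0.91, whereas Tpi1 (-0.59) and Gpi1 (-0.05) did not pass. A second, dimmer probe of Tpi1 did pass there (-1.46, adjusted p = 0.0141). The call of Gapdh ended without the second ESC sample (-0.63, adjusted p = 0.205), OS4-5 (0.0522) or the first (0.0658) or second (0.0937) CSE sample. That of Pgk1 ended without either ESC sample (0.113 and 0.118), OS4-5 (0.058) or the second (0.0777) or the third (0.102) CSE sample.

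Gapdh, often used as a reference gene, was at 17.26 and 17.82 in the ESCs, 17.38, 16.78, 17.33 and 17.25 in the otospheres and 16.74, 16.32 and 16.84 in the CSE by its brightest probe. That probe overlapped between otospheres and each of the other groups (0.55 ± 0.23 against the CSE, adjusted p = 0.188; -0.36 ± 0.26 against ESCs, adjusted p = 0.36). Its 7 probes gave 0.23 to 0.55 against the CSE, none past the threshold, but -1.80 to -0.36 against ESCs, where 4 of the 7 passed. The dimmest probe gave the largest of these differences. The value of Gapdh between otospheres and ESCs thus depended on the probe. Likewise Ldha gave -0.57, -1.63 and -1.54 with its 3 probes, of which the dimmer 2 passed (adjusted p = 0.035 and 0.021), and Tpi1 gave -0.44 and -1.09, of which the dimmer passed (adjusted p = 0.041). Genes of this pathway have many near-identical processed copies in the genome, and what such copies add to a probe's signal was not tested. Eno1b, the copy of Eno1, gave 0.78 against the CSE and -0.71 against ESCs, beside 0.68 and -0.84 for Eno1.

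**Figure D3:**
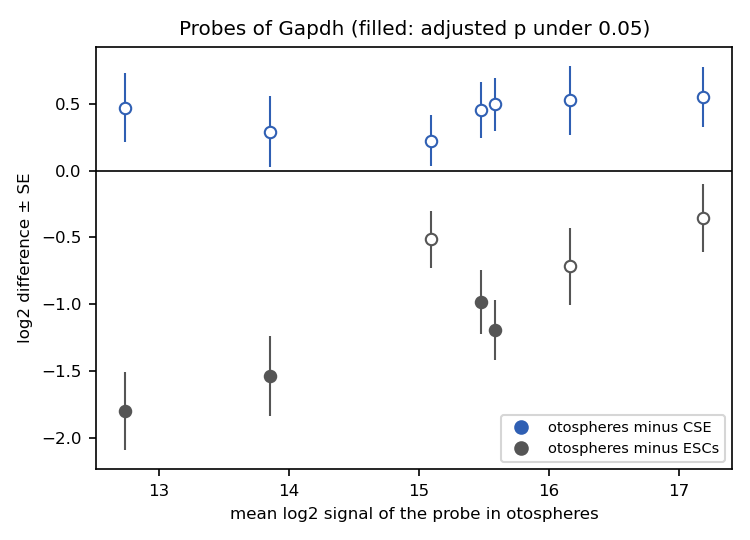
Each of the 7 probes of Gapdh is placed by its mean log2 signal in otospheres (horizontal) and by its log2 difference of otospheres from CSE (blue) or from ESCs (grey), with bars of 1 SE; filled points passed. Differences from the CSE lie between 0.23 and 0.55 for all probes, and those from ESCs between -1.80 and -0.36.

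Lactate dehydrogenase is built of the subunits Ldha, abundant where lactate is made, and Ldhb, abundant in heart and in tissues that burn lactate. Ldhb was at 14.48 and 13.54 in the ESCs, 13.01, 12.99, 13.12 and 13.20 in the otospheres and 15.16, 14.96 and 15.30 in the CSE. Otospheres lay below all other samples, with a difference of -2.06 ± 0.22 against the CSE (adjusted p = 0.000743) and -0.93 ± 0.25 against ESCs (adjusted p = 0.0243), and the CSE exceeded the ESCs by 1.13 ± 0.27 (adjusted p = 0.0123). The difference from the CSE was -2.06 on the first slide and -2.14 on the second, and it passed in 20 of 20 alternatives. That from ESCs did not pass without the first ESC sample (-0.46, adjusted p = 0.174), OS1-2 (0.0525) or OS4-5 (0.0518), and that of the CSE from ESCs was 0.15 (adjusted p = 0.824) with the processed signals aligned at their 75th percentile and 0.66 (adjusted p = 0.0639) without the second ESC sample. Ldha was at 16.90, 16.81, 16.19 and 15.81 in otospheres and 15.68, 15.54 and 15.57 in the CSE, which did not overlap, but its difference of 0.83 ± 0.29 did not pass (adjusted p = 0.118).

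**Figure D4:**
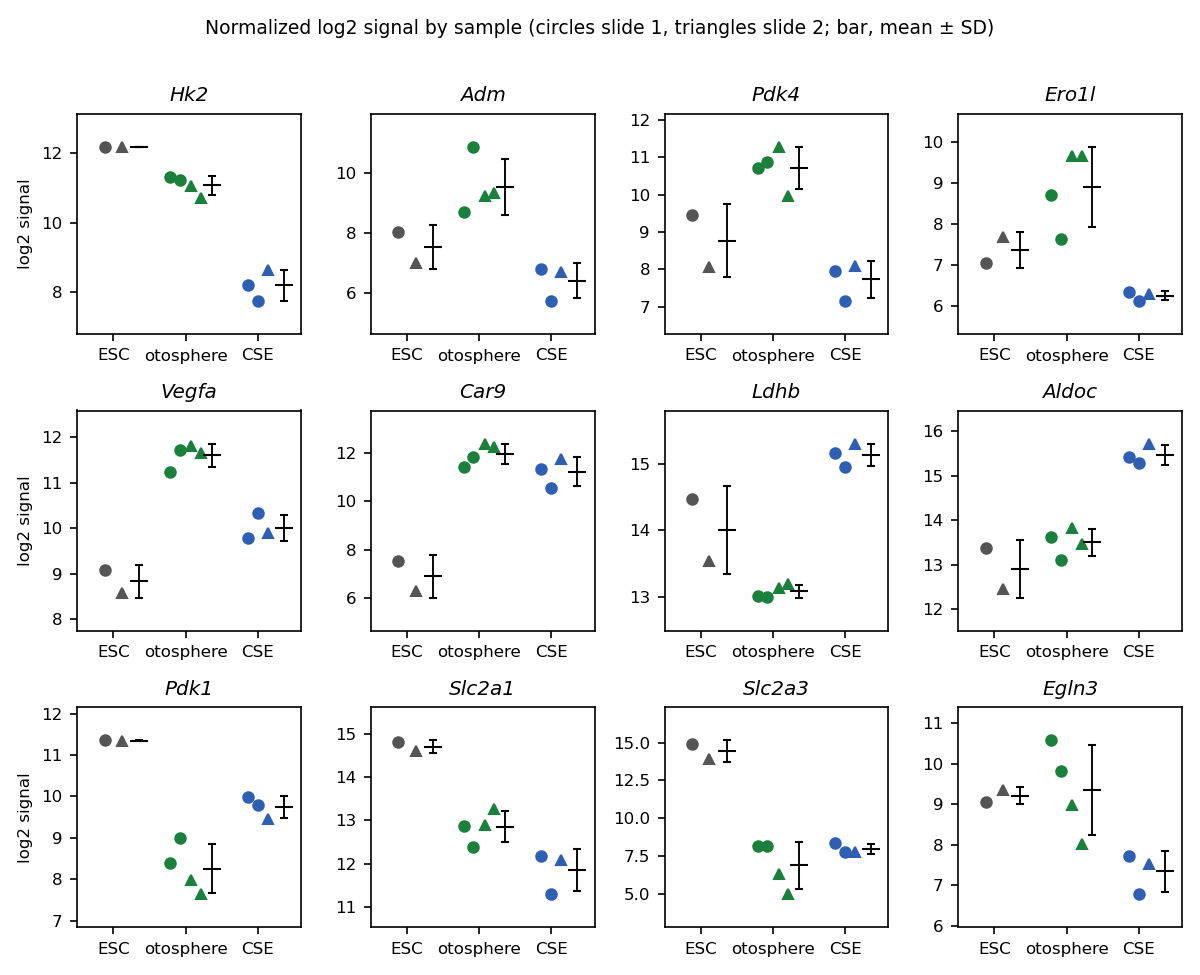
Normalized log2 signal (vertical axes) of 12 of the genes in the 2 ESC, 4 otosphere and 3 CSE samples, as circles for the first slide and triangles for the second, with the mean and SD of each group beside them. For Hk2 the otospheres lie between the other groups, for Adm, Pdk4 and Vegfa they lie above all other samples, and for Ldhb and Pdk1 they lie below them.

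Pfkfb3 and Pfkfb4 encode enzymes that make and remove the sugar bisphosphate by which phosphofructokinase is activated, and Pfkfb3 favours its making. Pfkfb3 was at 10.66 and 10.11 in the ESCs, 9.81, 10.93, 10.48 and 9.80 in the otospheres and 9.14, 8.81 and 8.85 in the CSE. Otospheres overlapped the ESCs and were above the CSE by 1.32 ± 0.30 (adjusted p = 0.0238), as they were by a second probe, also by 1.32 (adjusted p = 0.009). Pfkfb4 was at 8.33 and 8.05, then 8.85, 8.74, 8.86 and 9.12, then 9.58, 9.76 and 10.50. Here otospheres lay between the others and were below the CSE, with a difference of -1.05 ± 0.23 (adjusted p = 0.0216). The call of Pfkfb3 ended without OS4-5 (adjusted p = 0.071) or the first (0.0627), second (0.0761) or the third (0.0886) CSE sample, and that of Pfkfb4 without OS1-2 (0.053) or OS4-5 (0.0619).

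The pyruvate dehydrogenase kinases switch off the enzyme that admits pyruvate to the mitochondrial cycle, and the isozymes did not move together. Pdk1, a target of HIF, was at 11.35 and 11.34 in the ESCs, 8.41, 9.01, 7.99 and 7.64 in the otospheres and 9.99, 9.81 and 9.46 in the CSE. Otospheres were below all other samples, with a difference of -1.49 ± 0.31 against the CSE (adjusted p = 0.0153) and -3.08 ± 0.35 against ESCs (adjusted p = 0.000274). The first of these calls ended without the first (-1.37, adjusted p = 0.0738) or second (-1.46, adjusted p = 0.0508) CSE sample.

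Pdk4, the isozyme that rises in fasting and with fatty acid use, was at 9.46 and 8.08 in the ESCs, 10.73, 10.88, 11.29 and 9.96 in the otospheres and 7.95, 7.16 and 8.08 in the CSE. All otosphere samples were above all others, by 2.98 ± 0.42 against the CSE (adjusted p = 0.0024) and 1.95 ± 0.47 against ESCs (adjusted p = 0.0139; without the second ESC sample 1.26, adjusted p = 0.126). Pdk2, the most widespread isozyme, was at 8.70 and 7.77, then 9.13, 9.30, 10.19 and 10.20, then 10.18, 9.87 and 11.08. It was higher than in ESCs both in otospheres (1.47 ± 0.45, adjusted p = 0.0408) and in the CSE (2.14 ± 0.48, adjusted p = 0.00931), and otospheres and CSE overlapped. Both calls ended without the second ESC sample (adjusted p = 0.265 and 0.0737), and that of otospheres also without OS4-5 (0.093), OS6 (0.082) or the first CSE sample (0.0619).

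Of the oxygen-sensing genes, Hif1a, the oxygen-regulated subunit of HIF, was at 9.07 and 10.44 in the ESCs, 11.43, 11.07, 10.89 and 10.39 in the otospheres and 10.86, 10.79 and 10.78 in the CSE. Otospheres overlapped both other groups. The difference from the CSE was 0.13 ± 0.34 (adjusted p = 0.911), and that from ESCs 1.19 ± 0.39 (adjusted p = 0.0491), which did not pass in 14 of 20 alternatives. Among them were those without the first ESC sample (0.50, adjusted p = 0.376), without OS1-2 (0.099), OS3 (0.0907) or OS4-5 (0.0887), and without the first (0.0754), second (0.066) or the third (0.0733) CSE sample. HIF is regulated mainly through its protein, which these arrays do not measure.

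Egln3, a hydroxylase gene that HIF itself induces, was at 9.05 and 9.35 in the ESCs, 10.57, 9.81, 8.98 and 8.01 in the otospheres and 7.72, 6.78 and 7.53 in the CSE. All otosphere samples were above the CSE, by 2.00 ± 0.54 (adjusted p = 0.0476), with 2.94 on the first slide and 0.97 on the second. This call was lost in 12 of 20 alternatives, with adjusted p up to 0.149, among them those that leave out either ESC sample (0.0619), OS1-2 (0.075), OS3 (0.0967), OS4-5 (0.0844) or the first (0.102), second (0.149) or the third (0.118) CSE sample. A second probe gave 2.02 (adjusted p = 0.062). Egln1, the main hydroxylase of HIF in most cells, differed by 0.09 from the CSE and by -0.02 from ESCs, and neither passed.

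Of the 10 targets of the hypoxia response, 4 were higher in otospheres than in the CSE (7.17% of all genes were) and none lower (10.3%). Against ESCs 5 were higher (18.4% of all genes) and none lower (20.4%). Genes that HIF induces but that stand under other roles are not in these counts. Of those described above as such, Pdk1 was lower in otospheres than in the CSE (-1.49) and in ESCs (-3.08). Egln3 was higher than in the CSE (2.00). Vegfa, which encodes the growth factor of vessels, was at 9.08 and 8.58 in the ESCs, 11.23, 11.73, 11.80 and 11.66 in the otospheres and 9.78, 10.32 and 9.90 in the CSE. By this brightest probe the groups were apart from each other, with otospheres 1.60 ± 0.22 above the CSE (adjusted p = 0.00214) and 2.77 ± 0.25 above ESCs (adjusted p = 7.92e-05). A second probe gave 2.92 and 2.41, and by it the CSE overlapped the ESCs (-0.51, adjusted p = 0.564). The difference of otospheres from the CSE passed in 20 of 20 alternatives with values from 0.81 to 2.26, the lowest in the deposited log2 table. Vegfa's main probe was spotted 2 times, and over the 29 such probes that table's log2 values were a median of 0.497 times those of the scanner files.

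Adm, which encodes adrenomedullin, a peptide that widens vessels, was at 8.04 and 7.00 in the ESCs, 8.69, 10.86, 9.23 and 9.33 in the otospheres and 6.78, 5.74 and 6.70 in the CSE. Otospheres were above all other samples, by 3.12 ± 0.52 against the CSE (adjusted p = 0.00556) and 2.01 ± 0.59 against ESCs (adjusted p = 0.0326). The highest value was that of OS3, and the call against ESCs ended without the second ESC sample (1.49, adjusted p = 0.214) or OS4-5 (2.11, adjusted p = 0.053).

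Ero1l, the oxidase that helps proteins form disulphide bonds, was at 7.06 and 7.68 in the ESCs, 8.70, 7.62, 9.66 and 9.65 in the otospheres and 6.34, 6.13 and 6.29 in the CSE. It was higher in otospheres than in the CSE (2.66 ± 0.47, adjusted p = 0.00717), by 1.93 on the first slide and 3.37 on the second, and did not pass against ESCs (1.54 ± 0.53, adjusted p = 0.0602). Ndrg1, which is induced by hypoxia and by differentiation, was at 10.72 and 10.17, then 12.38, 12.67, 12.66 and 13.06, then 11.81, 11.65 and 11.51. The 3 groups of Ndrg1 did not overlap, and otospheres exceeded the CSE by 1.03 ± 0.21 (adjusted p = 0.0146; without the third CSE sample 0.96, adjusted p = 0.0645) and ESCs by 2.24 ± 0.24 (adjusted p = 0.000201).

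Car9, which encodes a carbonic anhydrase of the cell surface and is widely used as a marker of hypoxia, was at 7.51 and 6.27 in the ESCs, 11.43, 11.85, 12.36 and 12.25 in the otospheres and 11.35, 10.57 and 11.75 in the CSE. Both cochlear groups were far above the ESCs, otospheres by 5.08 ± 0.44 (adjusted p = 6.77e-05) and the CSE by 4.34 ± 0.46 (adjusted p = 0.000205). Otospheres and CSE overlapped (0.75 ± 0.39, adjusted p = 0.321). P4ha1, a subunit of the enzyme that hydroxylates collagen, was at 7.36 and 7.59, then 8.69, 9.84, 8.65 and 8.29, then 9.05, 8.49 and 9.07. It was likewise higher than in ESCs in otospheres (1.39 ± 0.40, adjusted p = 0.0289) and in the CSE (1.39 ± 0.42, adjusted p = 0.0344), while the cochlear groups overlapped, and both calls ended without the first (adjusted p = 0.138 and 0.144) or the second (0.0834 and 0.0879) ESC sample. That of the CSE also ended without OS4-5 (0.0514) or the first (0.0966) or the third (0.093) CSE sample.

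The remaining targets did not pass in otospheres. Bnip3 and Bnip3l, which mark mitochondria for removal, differed from the CSE by 0.31 and -0.42; of the 4 probes of Bnip3l, 1 passed and was lower (-0.77, adjusted p = 0.037). P4ha2 differed from the CSE by -1.09 ± 0.31 (adjusted p = 0.0579) and Ankrd37, a small ankyrin repeat gene, by -0.39 ± 0.71 (adjusted p = 0.864). Against ESCs Ankrd37 was at -2.44 ± 0.81 (adjusted p = 0.0524), in the opposite direction to the other genes of this group of targets with the exception of P4ha2 (-0.08). Ankrd37 passed as lower than in ESCs with offset 0, with the processed signals scaled to the 75th percentile and with every array as a sample. The replicate block, the intensity trend and leaving out OS3 gave the same call.

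Within the otospheres, none of the 38 genes passed after adjustment between OS4-6 and OS1-3 in limma (0.178% of all genes did). An unadjusted p under 0.05 was seen for 9 of the 38, and for 17.8% of all genes, so the values below are given as a description. Of these 9, Ero1l was higher in OS4-6 by 1.50, and Tpi1, Pgk1, Ldha, Slc2a3, Slc16a3, Pdk1, Egln3 and Ankrd37 were lower. The largest of the lower ones were Slc2a3 at -2.53, Slc16a3 at -2.20, Ankrd37 at -1.80 and Egln3 at -1.69. With every array as a separate sample 5 passed, Tpi1, Ldha, Slc2a3 and Egln3 lower and Ero1l higher. That fit counts OS1 and OS2, and OS4 and OS5, apart, although they differed by less than the noise between spots. The share of all genes that passed in it was not counted. OS1-3 and OS4-6 lay on different slides, so that slide and culture cannot be told apart. The proliferation genes varied as well, with a mean level of 0.79 in OS1-2, -0.35 in OS3, -1.07 in OS4-5 and -2.37 in OS6, and their part in these values was not tested.

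**Figure D5:**
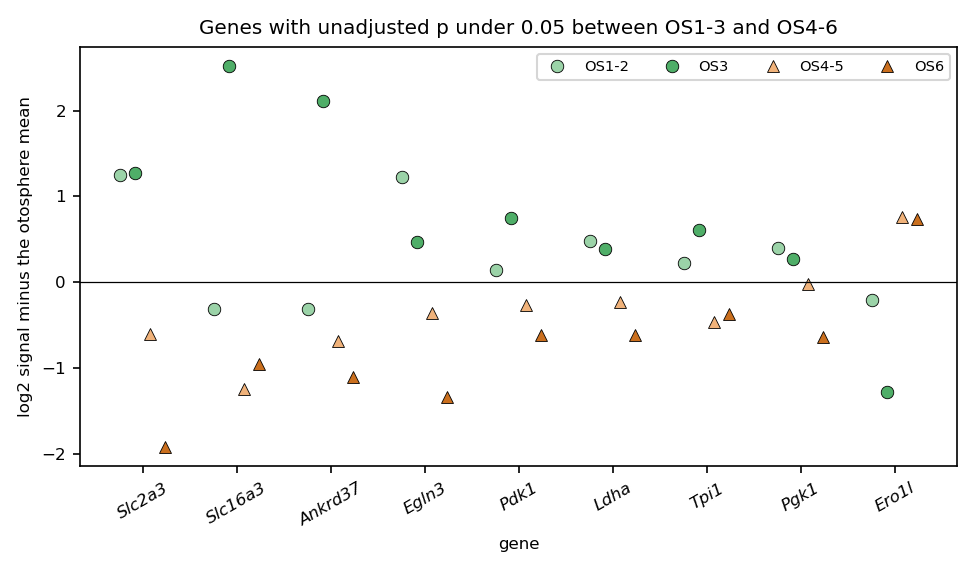
The vertical axis gives the log2 signal of each otosphere sample minus the mean of the 4, for the 9 genes with an unadjusted p under 0.05 between OS1-3 (circles) and OS4-6 (triangles). Both triangles lie below both circles for Slc2a3, Egln3, Pdk1, Ldha, Tpi1 and Pgk1, as for Slc16a3 and Ankrd37, whose highest sample is OS3, and above them for Ero1l.

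OS3 was the highest otosphere sample for 6 of the 10 hypoxia targets (Adm, Bnip3, Bnip3l, Ankrd37, P4ha1 and P4ha2), for 15 of all 38 genes (39.5%) and for 21.9% of all genes on the array. Among 26 further HIF targets it was the highest for 9 (34.6%). These counts were made after the values had been seen and have no test.

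Beside the 38 genes, 94 further genes of the same pathways were examined, of which 93 had a probe and 90 could be tested. Between otospheres and the CSE 21 of the 90 passed, against 17.5% of all genes, 12 higher (7.17%) and 9 lower (10.3%), and the median difference of the 90 was 0.03. Leaving out 1 sample gave counts from 10 to 23. They were 13 without OS4-5 and 10, 11 and 12 without the first, second and the third CSE sample. Against ESCs, 32 of the 90 passed in otospheres (19 higher, 13 lower) and 29 in the CSE (18 higher, 11 lower), both a smaller share than the 38.9% and 40.9% of all genes.

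The further HIF targets held 9 of these 21 among 25 tested, against 17.5% of all genes. Of the 9, 6 were higher in otospheres than in the CSE (7.17% of all genes) and 3 lower (10.3%). Of the 25 differences, 15 were positive and 10 negative. The targets named next are among the higher ones, and the lower ones are not reported here. Stc2, which encodes a secreted stanniocalcin, was at 9.29, 8.15, 10.54 and 11.17 in otospheres and 6.72, 6.07 and 6.91 in the CSE (3.22 ± 0.66, adjusted p = 0.0149). Bhlhe40, a transcriptional repressor of the circadian clock, rose by 2.86 ± 0.49 (adjusted p = 0.00644) and Lox, which cross-links collagen, by 2.56 ± 0.67 (adjusted p = 0.0427). None of Stc2, Bhlhe40 and Lox overlapped between the groups. Among the 9 subunits and regulators of HIF, Hif3a, a HIF subunit without the usual activating role, was the only one that passed against the CSE, where 17.5% of all genes did. It was at 8.31, 8.62, 9.76 and 10.70 in otospheres and 11.80, 10.91 and 11.75 in the CSE (-2.14 ± 0.54, adjusted p = 0.0355).

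Of 17 isozymes outside the list that were tested, 3 passed between otospheres and the CSE, against 17.5% of all genes. Of these, 1 was higher (7.17% of all genes) and 2 lower (10.3%), and the median difference of the 17 was -0.03. Ldhd, which encodes the mitochondrial enzyme that oxidises D-lactate, was at 11.25, 10.79, 11.70 and 12.23 in otospheres and 7.76, 7.33 and 8.38 in the CSE (3.67 ± 0.41, adjusted p = 0.000863), and the ESCs were at 8.35 and 7.23. Pgam2, the mutase of muscle, was lower in otospheres, at 6.71, 6.28, 6.51 and 6.22, than in the CSE, at 9.81, 9.69 and 11.08 (-3.76 ± 0.42, adjusted p = 0.000797). No otosphere sample overlapped the CSE for Ldhd or Pgam2.

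Of 9 further carriers, 2 passed between otospheres and the CSE (17.5% of all genes did), 1 higher (7.17%) and 1 lower (10.3%). Slc2a6, a glucose carrier family member of lysosomes, was higher in otospheres than in the CSE by 3.01 ± 0.73 (adjusted p = 0.031). Its values were 11.33, 11.56, 10.76 and 8.13 in otospheres and 7.81, 7.42 and 7.08 in the CSE. OS6 stood apart from the other otosphere samples and close to the CSE. Slc2a4, the glucose carrier that insulin moves to the cell surface, was lower in otospheres, at 8.97, 9.15, 9.12 and 8.68, than in the CSE, at 9.79, 9.78 and 10.03 (-0.89 ± 0.21, adjusted p = 0.0255), and is named because it is the other call of this list.

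The 8 genes of the pentose phosphate pathway, which branches from glycolysis to make NADPH and ribose, all had positive differences from the CSE, with a median of 0.41. Of all 18561 genes, 9158 had a positive difference. Of the 8, 2 passed as higher (7.17% of all genes did). The 2 were the genes of the first step, G6pdx in the cytosol (1.01 ± 0.24, adjusted p = 0.0291) and H6pd in the endoplasmic reticulum (1.81 ± 0.29, adjusted p = 0.00434). H6pd was at 11.43, 11.50, 10.91 and 10.62 in otospheres and 9.38, 8.82 and 9.70 in the CSE. Of the 11 genes tested for making glucose and for glycogen, 3 passed against the CSE (17.5% of all genes did), 2 higher (7.17%) and 1 lower (10.3%). Among the 11 differences, 6 were positive and 5 negative, with a median of 0.003. Fbp2, a fructose bisphosphatase of muscle, was at 10.08, 8.77, 9.93 and 9.43 in otospheres and 6.93, 6.79 and 6.99 in the CSE (2.65 ± 0.33, adjusted p = 0.00135). Pygl, the glycogen phosphorylase of liver, was lower in otospheres, at 9.17, 9.26, 9.34 and 9.42, than in the CSE, at 11.84, 11.49 and 11.91 (-2.45 ± 0.36, adjusted p = 0.00329).

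Among 11 genes of pyruvate entry and pyruvate dehydrogenase, 1 passed between otospheres and CSE (17.5% of all genes did), with a difference under 1, and 6 of the 11 differences were positive. It was Pdhx, which holds the subunits of the complex together, at -0.78 ± 0.16 (adjusted p = 0.0164), and it was named after its value had been seen. In the same way the carriers of pyruvate into mitochondria, Mpc1 and Mpc2, were singled out for being higher than in ESCs in both cochlear groups, Mpc1 by 2.27 in otospheres (adjusted p = 0.000103) and 2.33 in the CSE (0.00012) and Mpc2 by 2.32 (0.000293) and 2.16 (0.000541). Of the 11 genes, 4 passed between otospheres and ESCs (38.9% of all genes did), 2 higher (18.4%) and 2 lower (20.4%), and 7 differences were negative. Between the CSE and ESCs 3 passed (40.9% of all genes did), 2 higher (20.9%) and 1 lower (20%).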

How the data were processed

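Labelled RNA of 11 samples was hybridised to 1-colour Agilent arrays. The deposited scanner files hold spot intensity values that the authors extracted with Feature Extraction 10.7.3.1, and the authors also deposited a table of 43657 rows of normalized log2 values. Its column medians run from 6.89 to 6.93 and its values correlate with those of the scanner files at r of 0.997 to 0.998 over probes with 1 spot. For these it holds log2 signals, while for probes with 2 or 10 spots its values are about the log2 signal divided by the number of spots (median ratios 0.497 and 0.0992). The methods state background correction and quantile normalization in limma, and the correction method and offset are not given in the sources used here.

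Intensities were corrected with normexp (offset 16) and quantile-normalized in limma 3.58.1 (R 4.3.3), and spots of a probe were averaged. Probes at least 10% above the 95th percentile of the 308 negative control spots on at least 2 arrays were kept, 47997 of 55681. A linear model with the 3 groups and eBayes (residual degrees of freedom 6) was fitted to all kept probes, with p adjusted by Benjamini-Hochberg over them and a threshold of 0.05, and was tested on simulated data. Each gene is read by its brightest probe.

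The genes and lists were chosen with earlier results of these data known. Genes with a called difference of at least 1, and Gapdh, were given by sample, and up to 4 genes of each further list by size. Alternatives were other offsets, a 75th percentile scaling of the processed signals, the deposited log2 table, other filters, every array as a sample, slide or replicate as a block, the mean of all probes, an intensity trend, the one-way test of the methods and leaving out each sample. ESC data of other studies were not used here. Some genes of the further lists that met this rule are not reported here.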

Additional observations from a re-analysis of the deposited data

Results flagged for a closer look

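Of the 38 genes, 3 had a sample that stood apart from the other 3 otosphere samples, with a gap that was large for the range of the group. Chance gives such a gap in about 1 in 20 groups. Pgam1 was lower in OS6, at 14.55, than in the others (14.92, 14.92 and 14.95). Pkm was lower in OS1-2, at 14.18, than in the others (14.60, 14.56 and 14.55). Bnip3l was higher in OS3, at 13.61, than in the others (12.68, 12.66 and 12.59).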

How the results depend on the processing

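The number of genes lower in otospheres than in ESCs, 10, became 18 with the processed signals scaled to the 75th percentile, which changes the background correction and the scaling together. The number called between OS4-6 and OS1-3, 0, became 5 with every array as a separate sample. That fit counts OS1 and OS2, and OS4 and OS5, apart, although they differed by less than the noise between spots. The cause of the change was not tested. Leaving out 1 sample at a time gave 6 to 10 genes higher and 4 to 6 lower in otospheres than in the CSE, 5 to 9 higher and 7 to 11 lower in otospheres than in ESCs, 5 to 10 higher and 12 to 17 lower in the CSE than in ESCs, 21 to 30 by the F-test and 0 to 1 between OS4-6 and OS1-3. The further genes ranged from 10 to 23, 25 to 32 and 22 to 31 in these 3 comparisons, and the first was 13 without OS4-5 where it was 21. Deviations of samples with the same replicate number correlated from -0.39 to 0.36. Deviations from the mean of so few arrays are tied to each other, so these values cannot show whether the numbers pair the samples. With the replicate block, otospheres had 8 genes above and 4 below the CSE, 7 and 11 against ESCs, and 8 and 16 for the CSE against ESCs. The difference of Slc2a3 from the CSE was then 0.18, where it was -1.08, and that of Hif1a was -0.029 without OS1-2, where it was 0.13; neither passed in any fit. Of the values of single genes under the alternatives, 1127 kept direction and call, 109 lost the call, 2 gained it and 2 turned. These counts cover the differences called in the main fit and those of Hif1a, Vegfa, Gapdh, Slc2a1 and Slc2a3, so that calls gained by other genes are not in them. Such gains occurred, for example for Ankrd37 (lower) and Ero1l (higher) against ESCs and for P4ha2 (lower) against the CSE with every array as a sample. The number of arrays, 11, limits the precision, and with 1 sample of each ESC line the spread between ESCs holds the difference between lines. On the arrays 55.1% to 71.6% of spots were well above background.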
